A study of Rattus norvegicus with 14 samples.

Results

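Testes of rat fetuses whose dams received 300 mg/kg/day of dicyclohexyl phthalate (DCHP), the dicyclohexyl ester of phthalic acid and a plasticizer, were compared with testes of fetuses whose dams received the vehicle alone, 6 of the 14 libraries of the series. The 3 dosed and the 3 vehicle samples were chosen by the dose in their labels. The dams were Harlan Sprague Dawley rats dosed by oral gavage from gestational day 14 to 18, with laboratory-grade corn oil as the vehicle in both groups. Testes were dissected on gestational day 18 and pooled by litter, so 1 library stands for 1 litter and litters are the replicates. No genetic modification is named in the labels for either group. RNA was measured with TempO-Seq, a targeted assay that ligates pairs of detector oligos on their RNA and sequences the ligated product.

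In the fetal testis, Leydig cells of the interstitium make testosterone from cholesterol. Cholesterol is taken up from lipoproteins or built from acetyl-CoA, moved into mitochondria and cut by a P450 enzyme that draws electrons from ferredoxin, and further enzymes turn the product into androgens. Sterol synthesis genes are switched on together by the SREBP transcription factors when cell sterol runs low, and phthalate esters are known for lowering steroid synthesis in the fetal rat testis.

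The 6 libraries held 6764049 to 10198127 counts, and 12719 of 18174 genes were tested in a fit that also took in the other 8 libraries. Marker genes of the labelled tissue were present in all 6, with Sox9 of Sertoli cells at 286 to 362 CPM (counts scaled to a common library size with TMM factors) and Ddx4 of germ cells at 444 to 584 CPM. Correlations of log2 CPM were 0.953 to 0.976 among vehicle litters, 0.979 to 0.983 among dosed litters and 0.955 to 0.986 across the groups. The ranges within vehicle and across the groups overlapped. Vehicle replicate 1 stood apart: its interstitial markers summed to 10170 CPM, against 6717 to 7710 CPM in the other 5, and its erythroid markers to 46858 CPM, against 16691 to 29808 CPM. In replicate 1 of 300 mg/kg/day 13144 genes had at least 10 counts, against 11130 to 11968 in the other 5. Of the 359 genes with a log2 fold change above 1, 316 had a mean count under 20, whereas this held for 51 of the 97 genes below -1. Without that library the number of genes higher at an unadjusted p under 0.05 went from 240 to 98.

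At 300 mg/kg/day 6 genes fell, 0.0472% of the genes tested, and 0 rose in edgeR's quasi-likelihood test (two-sided, threshold 0.05 after Benjamini-Hochberg adjustment over the 12719 genes). At an unadjusted p under 0.05, 224 genes (1.76%) were lower and 240 (1.89%) higher. DESeq2, run as an alternative, called 24 genes lower (0.189%) and 3 higher (0.0236%), and all 6 were among them. Of the 6, 3 serve the path from cholesterol to steroid (Star, Scarb1 and Fdx1), 1 is a sterol synthesis enzyme gene (Sqle), and the others are the secretory protein gene Svs5 and the cell cycle inhibitor gene Cdkn1c. Effects are given as log2 fold changes of 300 mg/kg/day minus vehicle ± standard error. That error is the size of the log2 fold change divided by the square root of the F statistic of its quasi-likelihood test.

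**Figure D1:**
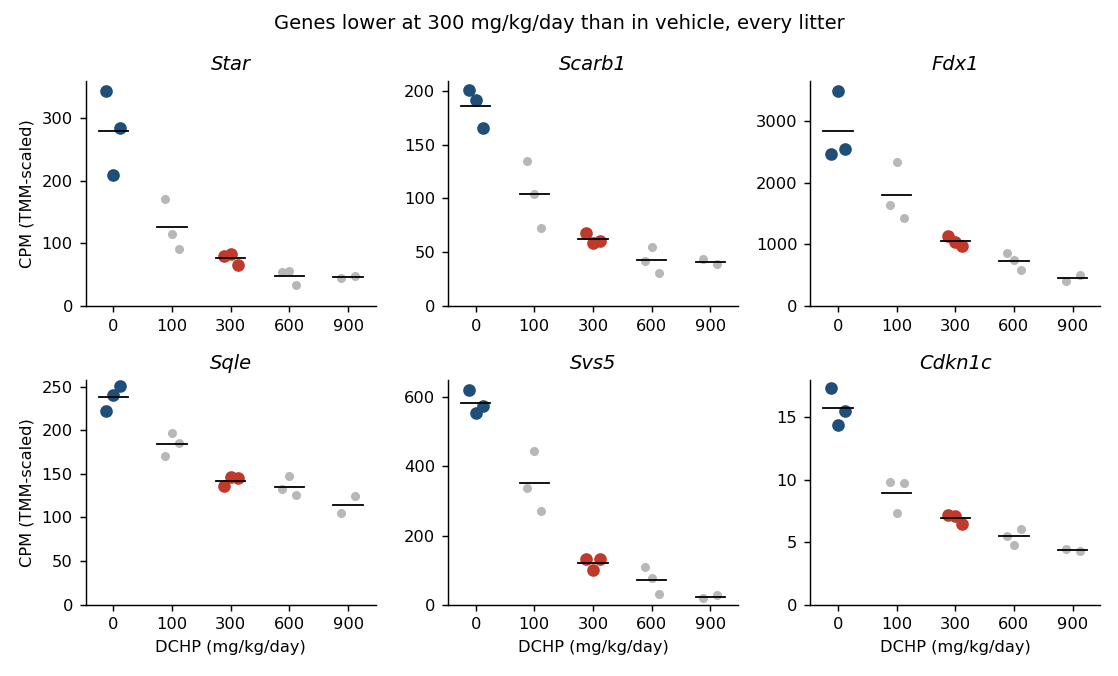
CPM of the 6 genes that fell, each point 1 litter and each line a group mean, over dose in mg/kg/day with equal spacing, not to scale. Vehicle litters are blue, 300 mg/kg/day litters red and the other doses grey. In all 6 panels the red points lie below the blue points without overlap, and for Star they span 64.8 to 83.2 CPM against 209 to 343 CPM.

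Star, the transporter that brings cholesterol to the inner mitochondrial membrane, was at 343, 209 and 283 CPM in the vehicle litters and at 80.6, 83.2 and 64.8 CPM in the dosed litters. The lowest vehicle litter was above the highest dosed litter, and the fold change was -1.87 ± 0.25 (n = 3 litters per group, edgeR adjusted p = 0.0287). Scarb1, the HDL receptor through which steroid-making cells take up cholesteryl ester, was at 201, 192 and 165 CPM in vehicle and 67.6, 58.4 and 60.3 CPM after dosing. The dosed litters were close together and all under the vehicle litters (-1.58 ± 0.22, edgeR adjusted p = 0.0287). Fdx1, ferredoxin 1, which hands electrons to the mitochondrial P450 enzymes, was at 2459, 3491 and 2541 CPM in vehicle and 1143, 1038 and 976 CPM after dosing. Its groups did not overlap either (-1.43 ± 0.20, edgeR adjusted p = 0.0287). On rn7 the 3 genes lie apart: Star (ENSRNOG00000015052) at chr16:66264807-66271673 on the minus strand, Scarb1 (ENSRNOG00000000981) at chr12:31296156-31362648 on the plus strand and Fdx1 (ENSRNOG00000012123) at chr8:52268536-52287415 on the minus strand.

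Sqle, squalene epoxidase, a rate-limiting enzyme of sterol synthesis, was at 222, 241 and 251 CPM in vehicle and 136, 146 and 145 CPM at 300 mg/kg/day. Its fall was the smallest of the 6 (-0.74 ± 0.11, edgeR adjusted p = 0.0287), and both groups were narrow, with SDs of 14.4 and 5.31 CPM. Svs5, a seminal vesicle secretory protein gene, was at 620, 554 and 573 CPM in vehicle and 133, 99.7 and 133 CPM after dosing. This was the deepest fall among the 6 (-2.26 ± 0.33, edgeR adjusted p = 0.0293). Cdkn1c, an imprinted inhibitor of cyclin-dependent kinases, was at 17.4, 14.4 and 15.5 CPM in vehicle and 7.20, 7.12 and 6.45 CPM after dosing (-1.19 ± 0.18, edgeR adjusted p = 0.0293). It was the least abundant of the 6, with a mean of 74.9 counts per library. On rn7 Sqle (ENSRNOG00000009550) lies at chr7:90868011-90883619 on the plus strand, Svs5 (ENSRNOG00000013834) at chr3:152996146-152997757 on the plus strand and Cdkn1c (ENSRNOG00000059500) at chr1:198655407-198658049 on the minus strand.

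The calls depended on single libraries more than the sizes did. Over the 14 fits that left out 1 library each, the log2 fold change ranged from -2.04 to -1.69 for Star, -1.66 to -1.52 for Scarb1, -1.52 to -1.25 for Fdx1, -0.79 to -0.70 for Sqle, -2.33 to -2.13 for Svs5 and -1.25 to -1.11 for Cdkn1c. The number of genes called lower was 0 without vehicle replicate 1 or 3, without any 1 of the 300 mg/kg/day litters, without replicate 1 or 2 of 600 mg/kg/day and without either litter of 900 mg/kg/day. It was 1 without vehicle replicate 2, 3 without replicate 3 of 100 mg/kg/day, 5 without replicate 3 of 600 mg/kg/day and 10 without replicate 1 of 100 mg/kg/day. When the 6 libraries were fitted alone, Star, Scarb1, Fdx1 and Svs5 passed.

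The dose groups on either side, which are other litters, give the place of 300 mg/kg/day in the series. The comparisons with vehicle share its 3 litters, so levels are set side by side. Mean CPM of Star was 278 in vehicle, 126 at 100, 76.2 at 300, 48.0 at 600 and 46.5 at 900 mg/kg/day. Every 300 mg/kg/day litter was below every 100 mg/kg/day litter for all 6 genes, but between those doses 0 genes passed in edgeR or DESeq2. At an unadjusted p under 0.05, edgeR gave 173 genes lower and 139 higher at 300 than at 100 mg/kg/day. Svs5 had the widest step, from 351 ± 87.4 CPM at 100 to 122 ± 19.2 CPM at 300 mg/kg/day (-1.53 ± 0.33, n = 3 litters each, edgeR adjusted p = 0.999). Cdkn1c had a narrow one, from 8.98 ± 1.40 to 6.92 ± 0.41 CPM (-0.37 ± 0.18), with 15.8 ± 1.48 CPM in vehicle (SD, n = 3 litters each). For Sqle the 300 and 600 mg/kg/day litters overlapped, with means of 142 and 135 CPM, and for Svs5 they did too.

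**Figure D2:**
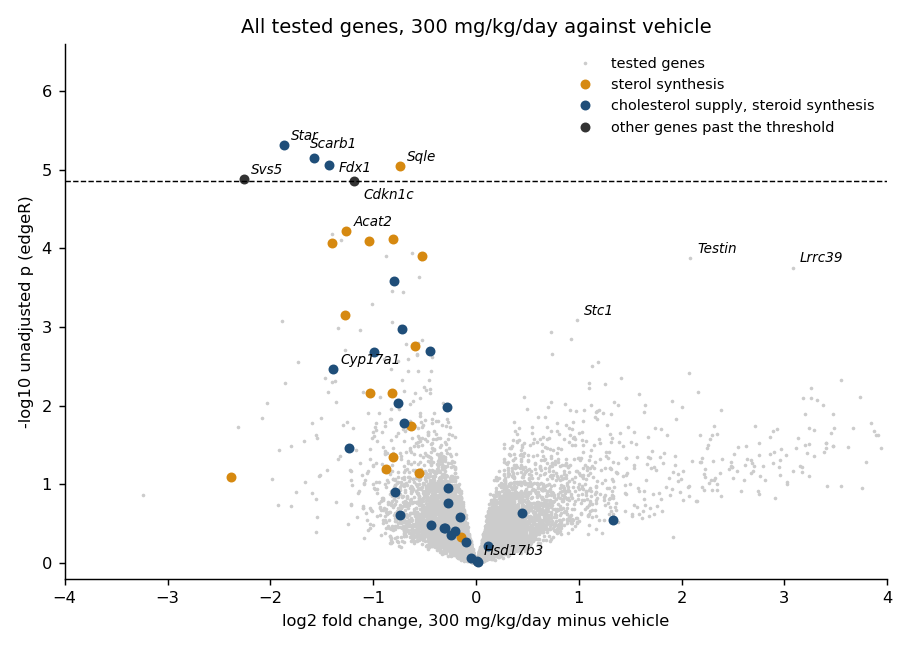
Log2 fold change (300 mg/kg/day minus vehicle) against -log10 of the unadjusted edgeR p for the tested genes, each point 1 gene, with the dashed line at the largest p that passed. Sterol synthesis genes are orange and cholesterol supply and steroid synthesis genes blue; 21 genes beyond a log2 value of 4 in size are not drawn. The 6 genes above the line are all on the left, and Testin and Lrrc39 are the highest points on the right.

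The tested sterol synthesis genes all had negative values, though not all of their litters were separate. In the mevalonate part, from acetyl-CoA to isoprenoid units, all 7 tested genes had negative values with a median of -0.88, against -0.02 over all tested genes, of which 52.9% were negative. Litters did not overlap for 5 of the 7, against 4.46% of all genes with every dosed litter below every vehicle litter. At an unadjusted p under 0.05, 4 of the 7 were lower, against 1.76% of all genes. From squalene synthesis to cholesterol, all 9 tested genes were negative (median -0.81), all 9 had dosed litters below the vehicle litters, and 8 had an unadjusted p under 0.05. Of these 16 genes only Sqle passed the edgeR threshold. The lists were chosen with earlier results of these data known, so these counts describe the genes and are no test of the pathway.

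Acat2, which joins acetyl-CoA units at the start of the pathway, was at 112, 109 and 80.8 CPM in vehicle and 44.4, 39.8 and 41.9 CPM after dosing (-1.26 ± 0.22, edgeR adjusted p = 0.0893). Idi1, the isopentenyl diphosphate isomerase, was at 52.3, 68.4 and 63.6 CPM and then at 29.7, 31.6 and 28.5 CPM (-1.04 ± 0.18, edgeR adjusted p = 0.0893). Both sets of litters were separate. Neither gene reached the edgeR threshold, but both passed in DESeq2 (adjusted p = 6.09e-05 and 0.000365). Mvd, the decarboxylase of the pathway, was at -1.03 ± 0.32, and Ggps1, which leads off to geranylgeranyl groups rather than to sterols, was at -0.15 ± 0.19.

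Past squalene, Lss, the lanosterol synthase, was at 16.4, 17.7 and 12.6 CPM in vehicle and 7.84, 5.53 and 4.20 CPM after dosing (-1.40 ± 0.25, edgeR adjusted p = 0.0893). Dhcr7, a reductase of the last steps, was at 27.5, 25.0 and 29.4 CPM and then at 14.9, 16.8 and 15.0 CPM (-0.81 ± 0.14, edgeR adjusted p = 0.0893). Fdft1, squalene synthase, was at 199, 215 and 216 CPM and then at 150, 139 and 148 CPM (-0.53 ± 0.10, edgeR adjusted p = 0.102). The groups of Dhcr7 and Fdft1 were narrow, those of Lss were wider, and the 3 genes passed in DESeq2 (adjusted p = 0.000278, 0.000711 and 0.000711). Tm7sf2, a sterol reductase gene, was at -1.27 ± 0.29, Cyp51 at -0.80 ± 0.36, Msmo1 at -0.82 ± 0.26 and Hsd17b7 at -0.59 ± 0.15. Of these, Tm7sf2 passed in DESeq2 (adjusted p = 0.0496).

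**Figure D3:**
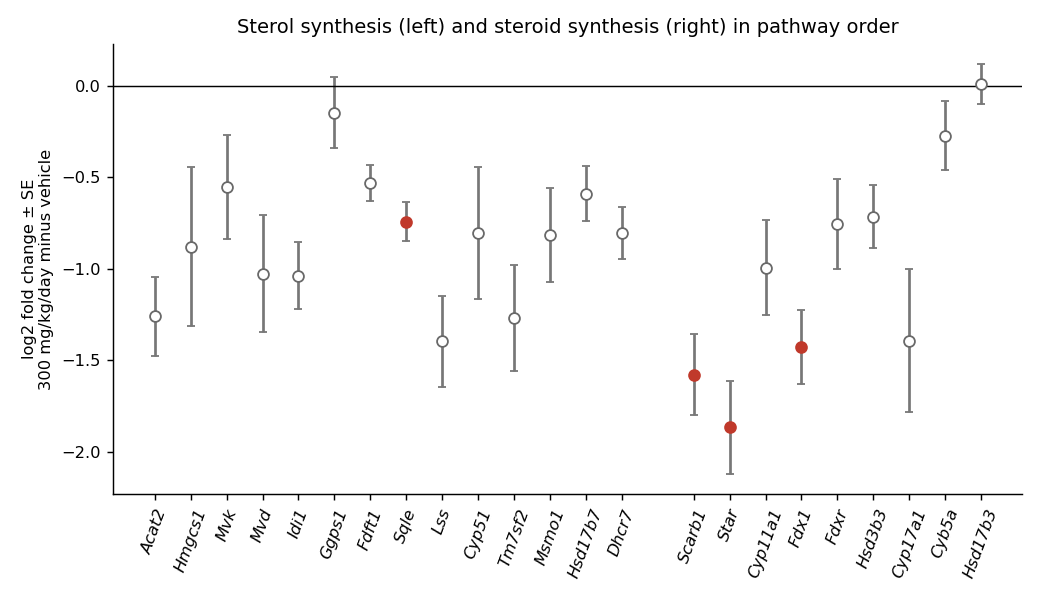
Log2 fold change ± standard error (300 mg/kg/day minus vehicle, 3 litters each) of named sterol synthesis genes on the left and of cholesterol uptake and steroid synthesis genes on the right, in pathway order, with genes that passed in edgeR filled red. On the left every point lies below 0, with Ggps1 nearest to it, and on the right Hsd17b3 sits at 0.01.

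Promoter sequences of sterol synthesis genes and of Svs5 are shown from RefSeq, on the build GRCr8, with the 250 bases before the annotated start. They were found by symbol for 2 of the 6 genes that fell (Fdx1 and Svs5) and for 12 of the 16 sterol synthesis genes. Both strands were searched for the CCAAT motif, the box bound by NF-Y, a factor known to act with SREBP at sterol genes, for CACCCCAC, the core of a sterol response element, and for AAGGTCA, a binding motif of NR5A1, steroidogenic factor 1. A CCAAT box was in 9 of the 12 sterol gene promoters and in 34.0% of all 33469 promoters. CACCCCAC was in 0 of the 12 and in 2.32% of all, and AAGGTCA was in 0 of the 12 and in 3.99% of all. Of the genes that fell, Svs5 held AAGGTCA 75 bases before its start. The sequences printed are the sterol genes Idi1, Msmo1 and Hsd17b7, with 2, 3 and 3 CCAAT boxes, and Svs5, the gene with the deepest fall. Capitals mark CCAAT or its reverse complement ATTGG in the sterol genes and AAGGTCA in Svs5, and a match is only a match of letters.
Idi1, chr17:66547525-66547774, minus strand: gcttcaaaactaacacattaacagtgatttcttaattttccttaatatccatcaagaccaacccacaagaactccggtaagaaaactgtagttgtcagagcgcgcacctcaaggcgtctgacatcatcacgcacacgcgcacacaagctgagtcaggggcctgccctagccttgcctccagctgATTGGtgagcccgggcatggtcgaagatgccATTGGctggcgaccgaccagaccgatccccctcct
Msmo1, chr16:29746863-29747112, plus strand: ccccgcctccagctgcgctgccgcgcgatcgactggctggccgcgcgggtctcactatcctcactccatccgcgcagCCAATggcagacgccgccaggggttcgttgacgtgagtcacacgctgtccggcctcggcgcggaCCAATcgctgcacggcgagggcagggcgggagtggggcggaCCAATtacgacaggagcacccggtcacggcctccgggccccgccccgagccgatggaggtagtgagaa
Hsd17b7, chr13:84722755-84723004, minus strand: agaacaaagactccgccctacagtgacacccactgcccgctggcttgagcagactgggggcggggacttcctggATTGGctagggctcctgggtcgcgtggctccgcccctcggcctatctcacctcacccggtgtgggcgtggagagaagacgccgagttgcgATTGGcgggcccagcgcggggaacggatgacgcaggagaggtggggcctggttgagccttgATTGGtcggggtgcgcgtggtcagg
Svs5, chr3:173415271-173415520, plus strand: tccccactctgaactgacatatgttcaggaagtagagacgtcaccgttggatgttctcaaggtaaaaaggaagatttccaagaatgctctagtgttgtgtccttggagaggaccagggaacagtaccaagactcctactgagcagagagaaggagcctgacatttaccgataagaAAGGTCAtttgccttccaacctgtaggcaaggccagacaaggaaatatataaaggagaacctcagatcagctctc

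By their median, genes that sense and ship sterol did not lie lower as a group, although their summed level did. Of 14 tested, 8 had negative values (median -0.04), and 1, Insig1, had an unadjusted p under 0.05. Insig1, which retains SREBP in the endoplasmic reticulum and is itself an SREBP target, was at 390, 722 and 664 CPM in vehicle and 326, 304 and 328 CPM after dosing (-0.89 ± 0.24, edgeR adjusted p = 0.692). The dosed litters were close together, and vehicle replicate 1 was nearest to them. The 16 measured genes of the list, Insig1 included, summed to 1239 to 1505 CPM in vehicle and 1088 to 1134 CPM after dosing. Srebf2, the SREBP gene for sterol synthesis, was at 210, 288 and 239 CPM and then at 263, 223 and 239 CPM (-0.02 ± 0.15, or 0.01 with library totals only), so its groups overlapped.

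Of 13 cholesterol supply genes tested, Star and Scarb1 included, 11 were negative (median -0.28). In 5 of the 13 every dosed litter was below every vehicle litter, as in 4.46% of all tested genes. The 5 were Star, Scarb1, Lrp8, Stard4 and Npc2. Lrp8, an apolipoprotein E receptor, was at 48.1, 38.7 and 33.5 CPM in vehicle and 22.3, 26.2 and 20.9 CPM after dosing (-0.79 ± 0.16, edgeR adjusted p = 0.165). It passed in DESeq2 (adjusted p = 0.0024). Stard4, a soluble sterol carrier, was at -0.45 ± 0.12 and Npc2, which frees cholesterol from lysosomes, at -0.28 ± 0.09. Tspo, an outer mitochondrial membrane protein, was at 46.6, 26.3 and 40.8 CPM and then at 43.2, 44.1 and 36.2 CPM, with overlapping groups. Lipe, a cholesteryl ester hydrolase, had too few counts to be tested.

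Among the enzymes and electron donors of steroid synthesis Fdx1 alone passed, and 13 of 16 tested values were negative (median -0.71). Every dosed litter was below every vehicle litter for 8 of the 16, as for 4.46% of all tested genes. Cyp11a1, the side-chain cleavage enzyme that makes pregnenolone, was at 696, 1083 and 760 CPM in vehicle and 474, 424 and 377 CPM after dosing (-0.99 ± 0.26, edgeR adjusted p = 0.656). Cyp17a1, which turns progestagens into androgens, was at 223, 523 and 300.04 CPM in vehicle and 168, 103 and 127 CPM after dosing (-1.39 ± 0.39, edgeR adjusted p = 0.802). In both genes the groups were separate, and vehicle replicate 2 was far above the other vehicle litters. Fdxr, the reductase that feeds ferredoxin, was at -0.76 ± 0.25.

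Hsd3b3, a 3-beta-hydroxysteroid dehydrogenase gene, was the most abundant of the list, at 4104, 5480 and 4909 CPM in vehicle and 3143, 2931 and 2747 CPM after dosing (-0.72 ± 0.17, edgeR adjusted p = 0.448). Its paralogues Hsd3b1 (-0.70 ± 0.25) and Hsd3b2 (-1.24 ± 0.53) had means of 22.9 and 12.6 counts, and how reads were divided among such near-identical genes is not given in the sources used here. Srd5a3, a gene of the steroid reductase family, was at 68.3, 55.4 and 52.8 CPM in vehicle and 47.7, 47.8 and 51.0 CPM after dosing, with a narrow gap between the groups (-0.27 ± 0.16, edgeR adjusted p = 0.9995). Hsd17b3, the testicular enzyme of the final step to testosterone, was at 280.1, 292 and 267 CPM in vehicle and 275, 288 and 281 CPM after dosing. Its groups overlapped fully (0.01 ± 0.11, or -0.02 with no filter on low counts). Cyb5a, which aids the lyase step of Cyp17a1, was at -0.27 ± 0.19. Without vehicle replicate 1 the median of the list was -0.45, and without vehicle replicate 2 Cyp17a1 was at -0.98.

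Hormone, receptor and transcription factor genes of Leydig cells had 17 of 19 negative values with a median of -0.17. Inha, the inhibin alpha subunit, was at 172, 226 and 192 CPM in vehicle and 126, 116 and 119 CPM after dosing (-0.71 ± 0.15, edgeR adjusted p = 0.207), and it passed in DESeq2 (adjusted p = 0.0249). Insl3, the hormone that drives testis descent, was at 2275, 5869 and 3444 CPM in vehicle and 2401, 1600 and 2285 CPM after dosing. The vehicle litters spanned more than the distance between the groups, which overlapped (-0.88 ± 0.39, edgeR adjusted p = 0.9995, and -0.45 without vehicle replicate 2). Cebpb, a transcription factor gene, was at -0.82 ± 0.19 and Prlr, the prolactin receptor, at -0.98 ± 0.36, both with separate groups and neither past the threshold in edgeR. Nr5a1, steroidogenic factor 1, was at 168, 114 and 115 CPM and then at 92.4, 103 and 92.3 CPM (-0.47 ± 0.21, edgeR adjusted p = 0.9995, and -0.26 without vehicle replicate 1). Lhcgr, the LH receptor, had a mean of 19.1 counts (-0.73 ± 0.41, and -0.46 without vehicle replicate 3). In pooled testis RNA, fewer Leydig cells and less RNA of these genes in each Leydig cell cannot be told apart.

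Fatty acid synthesis genes were negative in 11 of 12 cases (median -0.46), with 0 past the edgeR threshold. Of the 12, 6 were lower at an unadjusted p under 0.05, as were 1.76% of all tested genes. Acss2, which makes acetyl-CoA from acetate, was at 6.75, 8.06 and 5.94 CPM in vehicle and 3.01, 2.701 and 2.10 CPM after dosing (-1.40 ± 0.24, edgeR adjusted p = 0.0893). It passed in DESeq2 (adjusted p = 0.00262). Its 600 mg/kg/day litters all lay above the 300 mg/kg/day litters, with a mean of 4.38 CPM. Acly, which makes acetyl-CoA from citrate, was at -0.56 ± 0.21 (-0.34 without vehicle replicate 1). The desaturase gene Scd2 was at -0.45 ± 0.13 (-0.25 without vehicle replicate 2), while Fasn, the fatty acid synthase, was at a mean of 21.5 counts (-0.46 ± 0.32). Fatty acid oxidation genes and PPAR targets showed 13 negative values of 23 (median -0.12, and 0.02 without replicate 2 of 300 mg/kg/day). They summed to 2788 to 2968 CPM in vehicle and 2472 to 2586 CPM after dosing. Among them Fabp3, a fatty acid binding protein gene, had separate groups (727, 505 and 624 CPM, then 439, 496 and 427 CPM, -0.45 ± 0.14).

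**Figure D4:**
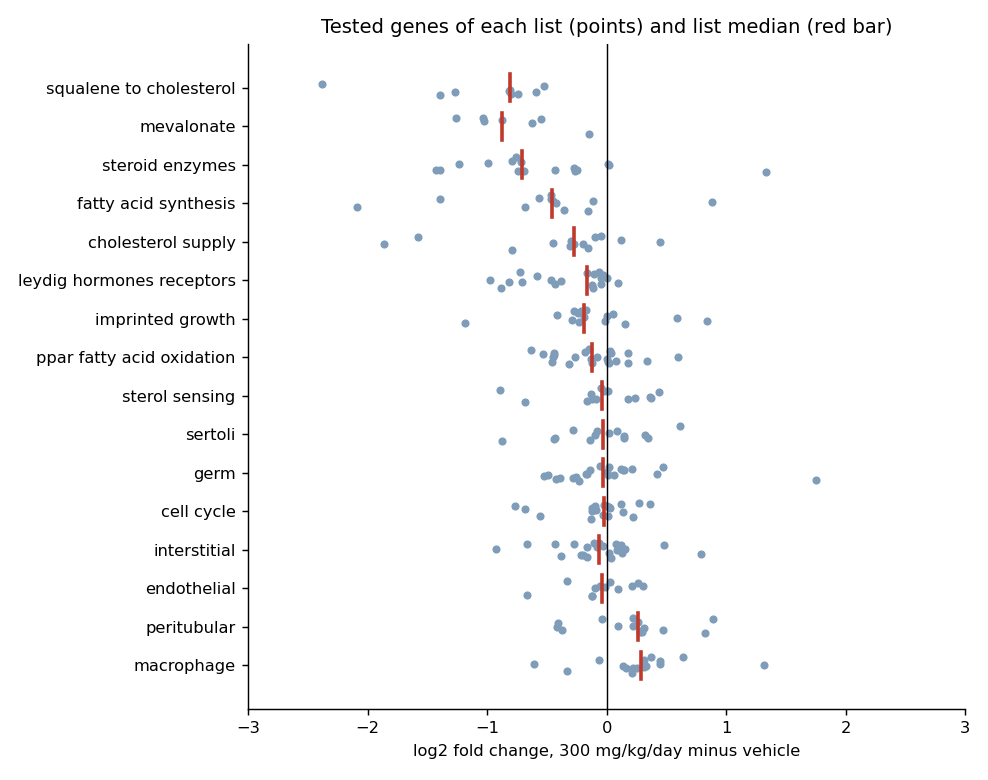
Log2 fold change (300 mg/kg/day minus vehicle) of every tested gene of 16 gene lists, each point 1 gene and each red bar a list median. The 3 lists with medians from -0.88 to -0.71 are the mevalonate, squalene to cholesterol and steroid enzyme lists, and the medians of the Sertoli, germ, cell cycle and endothelial lists lie between -0.04 and -0.02.

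Genes outside these pathways that came nearest to the threshold included Stc2, a stanniocalcin hormone gene, at 45.6, 38.2 and 42.2 CPM in vehicle and 17.7, 19.6 and 13.1 CPM after dosing (-1.32 ± 0.23, edgeR adjusted p = 0.0893). Its paralogue Stc1 had the opposite sign, at 19.7, 27.9 and 26.5 CPM and then at 41.8, 51.1 and 53.4 CPM (0.98 ± 0.23, edgeR adjusted p = 0.402). For each of the 2 genes the litters of the groups were separate. Sgk1, a glucocorticoid-regulated kinase gene, was at -0.63 ± 0.12, Pcyt2, an enzyme gene of phosphatidylethanolamine synthesis, at -0.54 ± 0.10 and Crabp2, a retinoic acid binding protein gene, at -0.56 ± 0.11, with edgeR adjusted p of 0.102, 0.102 and 0.153. Arhgef38, a guanine nucleotide exchange factor gene, was at 16.5, 15.9 and 8.80 CPM and then at 4.51, 4.67 and 1.80 CPM (-1.89 ± 0.44, edgeR adjusted p = 0.402). Ppif, the mitochondrial cyclophilin (-0.81 ± 0.17), the small GTPase gene Rab33a (-1.01 ± 0.22) and 1 of the 4 tested entries of the histone symbol Hist2h3c2 (-0.74 ± 0.18) passed as lower in DESeq2 only. The same held for Stc2, Sgk1, Pcyt2, Crabp2 and Arhgef38 (DESeq2 adjusted p = 8.95e-05, 0.00315, 0.000365, 0.0177 and 0.0250). Another gene that DESeq2 called bears only an identifier.

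No gene rose in edgeR, and the 3 that passed as higher in DESeq2 were Testin, Lrrc39 and Stc1. Testin, a testis protein gene, was at 0.695, 0.299 and 1.03 CPM in vehicle and 2.04, 3.56 and 3.00 CPM after dosing (2.08 ± 0.39, edgeR adjusted p = 0.102). Lrrc39, a leucine-rich repeat gene, was at 0.40, 0.70 and 0.11 CPM and then at 1.40, 3.32 and 6.30 CPM (3.08 ± 0.60, edgeR adjusted p = 0.125). Both had separate groups at means of 25.4 and 23.1 counts over the 14 libraries, and the dosed litters were wide apart for Lrrc39. The next highest by unadjusted p were the serine protease gene Klk8 (0.73 ± 0.18), the small G protein gene Rasd2 (0.74 ± 0.19), the muscle Z-disc gene Ldb3 (1.18 ± 0.32), the transcription factor gene Klf5 (1.10 ± 0.34, and 0.67 without replicate 1 of 300 mg/kg/day), the complement regulator gene Cd55 (0.46 ± 0.15), Fam221a (0.87 ± 0.29) and Asb2, a ubiquitin ligase subunit gene (1.39 ± 0.46). Their edgeR adjusted p ran from 0.457 to 0.9995. Every dosed litter was above every vehicle litter for these, as for 4.88% of all genes, and that separation was part of how they were chosen.

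Of 5 seminal vesicle secretory genes measured, 3 were too low to be tested. Beside Svs5 the other tested was Svs6, with a mean of only 4.29 counts per library and a value of -1.75 ± 1.08 (edgeR adjusted p = 0.9995). Of 15 tested imprinted and related growth genes Cdkn1c alone passed, and the median was -0.19. Igf2, the fetal growth factor, was at 338, 394 and 308 CPM in vehicle and 306, 304 and 271 CPM after dosing (-0.24 ± 0.11, and -0.14 without vehicle replicate 2), and Grb10, a growth inhibitor, at -0.21 ± 0.15. Among 14 xenobiotic and oxidative stress genes 9 were negative, and Gsta1, a glutathione transferase gene, was at 174, 84.4 and 75.2 CPM and then at 40.9, 53.7 and 35.1 CPM (-1.36 ± 0.45, and -0.88 without vehicle replicate 1, whose level was the highest). Cyp3a23-3a1, a PXR target gene, was higher with a mean of only 3.79 counts per library. The xenobiotic and oxidative stress genes summed to 1025 to 1156 CPM in vehicle and 885 to 905 CPM after dosing.

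Sertoli, gonocyte, cell cycle, endothelial and interstitial lists had medians within 0.1 of 0, and over the alternatives each of these medians changed sign at least once. Amh, the Sertoli hormone gene, was at 95.9, 220.4 and 148 CPM in vehicle and 183, 126 and 161 CPM after dosing (0.02 ± 0.26). Of 14 Sertoli genes 7 were negative, as were 11 of 22 gonocyte genes, 11 of 19 cell cycle genes and 7 of 12 endothelial genes, with 0 of them at an unadjusted p under 0.05. Every dosed litter was above every vehicle litter for 2 Sertoli genes, Sox8 and Ptgds, and 2 gonocyte genes, Nanog and Pou5f1. This held for 4.88% of all genes, and in both lists 0 genes were separate in the other direction. Sox9 was at 0.14 ± 0.11 and Ddx4 at 0.06 ± 0.11, the latter -0.04 without vehicle replicate 2. Interstitial progenitor and hedgehog genes had 14 of 23 negative values (median -0.07), and Hhip, a hedgehog target and inhibitor, was at 5.26, 2.99 and 1.49 CPM and then at 6.02, 5.28 and 5.70 CPM (0.79 ± 0.35, but 1.32 without vehicle replicate 1 and 0.46 without vehicle replicate 3).

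Peritubular myoid markers leaned the other way, with 4 of 15 values negative and a median of 0.26 (0.15 at the lowest over the alternatives). They summed to 1045 to 1273 CPM in vehicle and 1329 to 1454 CPM at 300 mg/kg/day. Every dosed litter was above every vehicle litter for 4 of the 15, as for 4.88% of all genes. For 1 of the 15, Myocd, every dosed litter was below, as for 4.46% of all genes. Over the alternatives Myocd was between -0.55 and -0.24. Acta2, smooth muscle actin, was at 109, 153 and 129 CPM in vehicle and 154, 157 and 175 CPM after dosing (0.32 ± 0.15, and 0.20 without vehicle replicate 1), separated by the narrow gap between vehicle replicate 2 and dosed replicate 1, and 0 of the 15 passed in edgeR. Macrophage markers had 3 of 16 negative values (median 0.28) at summed levels of 83.0 to 85.7 CPM and 89.0 to 96.0 CPM, with 0 at an unadjusted p under 0.05. Erythroid markers summed to 16691 to 46858 CPM in vehicle and 16755 to 29808 CPM after dosing, and their median was -0.33 with and 0.25 without vehicle replicate 1. Adrenal markers summed to 8.83 to 11.7 CPM in vehicle and 6.01 to 11.6 CPM after dosing, and liver markers to 10.9 to 16.8 and 12.6 to 15.7 CPM. Immediate early genes had 8 of 15 negative values (median -0.02), skeletal muscle genes 8 of 14 (-0.10) and mesonephric duct genes 5 of 8 (-0.13). At an unadjusted p under 0.05, 2 of the 15 and 2 of the 14 were higher, against 1.89% of all genes. The immediate early genes summed to 210 to 225 CPM in vehicle and 228 to 288 CPM after dosing. For Fosb and Egr1 every dosed litter was above every vehicle litter, as for 4.88% of all genes. In none of these lists was a gene that is in the table at 0 in all 6 libraries (0 in each list). The part of these shifts in the changes of the steroid and sterol genes was not tested.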

How the data were processed

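Members and gene lists were chosen with earlier results of these data known. The labels' protocols describe pooled testis RNA measured with the TempO-Seq rat whole transcriptome assay (21119 target genes). The estimated counts per Ensembl gene were deposited by the authors and used without their attenuation factors. Per the submitters' processing notes, STAR 2.7.8a, Partek, DESeq2 and rn7 were used, with no roles stated. Of the values 83.6% were whole numbers (tolerance 1e-09), and every value was rounded. No column was left unassigned.

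All 14 libraries (5558875 to 11272860 counts) were fitted with edgeR 4.0.16 in R 4.3.3. The steps were filterByExpr, TMM scaling, a mean for each of 5 dose groups and robust quasi-likelihood tests (9 residual degrees of freedom, biological coefficient of variation 0.232). Tests were two-sided, with Benjamini-Hochberg adjustment over 12719 genes. Of these 866 have no name. The alternative tool was DESeq2 1.42.0. Levels are CPM on TMM-scaled totals, and counting error adds to litter variation mainly in genes of few counts.

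Of 437 list symbols 66 are not in the table and 47 were too low to test. Named are all genes that passed in edgeR or DESeq2, the 10 lower and 10 higher next in unadjusted p (a symbol, mean count of at least 20, separate groups), a panel of 12, and list members at an unadjusted p under 0.05 or with separate groups; 1 lower and 4 higher identifiers were passed over. Other list members are named for comparison, chosen after their values were seen, and some items are not reported here. On simulated counts with 50 genes shifted at each fold among 12719, 16%, 40%, 92% and 100% of 1.5-, 2-, 4- and 8-fold shifts were recovered, with 6 unchanged genes called. The shifted genes of all folds were in 1 run and had mean counts of at least 20. Many true shifts at once ease the adjusted threshold, so these shares can be too high for the real comparison.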

Additional observations from a re-analysis of the deposited data

How the results depend on the processing

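In edgeR 6 genes were lower and 0 higher, and over the 14 fits without 1 library the number lower ranged from 0 to 10 and the number higher was 0 in each. DESeq2 called 24 lower and 3 higher. Leaving out both vehicle replicate 1 and replicate 1 of 100 mg/kg/day, chosen after seeing the data, gave 40 lower, of which 4 were among the 6, and the cause was not tested. The number lower was 6 with RLE size factors, a mean count of at least 20 or attenuation-adjusted counts, 5 with library totals only, and 4 with no filter on low counts or with the 6 libraries alone. No paired analysis was possible because litters carry no numbers in common across doses. Named genes that changed sign all had values near 0 and no call. Srebf2 was at 0.0097 with library totals only and between -0.12 and 0.11 without 1 library. Hsd17b3 was at -0.024 with no filter and between -0.023 and 0.041 without 1 library. Amh was at -0.010 with no filter, at -0.24 without the 2 libraries named above, and between -0.23 and 0.36 without 1 library. Ddx4 was between -0.042 and 0.12 without 1 library. No alternative moved the median of all genes by 0.1 on the log2 scale. At this depth and with 3 litters a group, changes could be missed. In the simulation 40% of 2-fold shifts were recovered. That share can be too high here, because the simulation held many large shifts at once, which eases the adjusted threshold.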
